A study of Rattus norvegicus with 9 samples.

Results

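Interferon-stimulated genes are genes that cells transcribe in response to interferons, and 9 of them were examined here, out of 34092 genes in the deposited expression table. They were taken by name, as Stat2, Irf1, Irf7, Isg15, Ifit2, Ifit3, Mx1, Mx2 and Rsad2, by a rule that uses no measured value, though earlier results of these data were known when it was written. RNA was sequenced from primary hippocampal neurons of wild-type rat fetuses of embryonic day 17, cultured for 7 days in vitro. Control cultures received vehicle, NPCT cultures received 1 nM human NPCT (aminoprocalcitonin, a peptide cut from procalcitonin) and PCT cultures received 1 nM human PCT (procalcitonin, its parent peptide), each for 24 h, with 3 libraries per group. The cultures are bulk samples in which glial transcripts were also present, and fewer cells of a type and less RNA per cell cannot be told apart in them. Each group has 3 numbered replicates in the labels, while the methods state that triplicates were pooled before RNA extraction, so the p-values below measure only the spread between these libraries, which may be technical.

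Type I interferons bind the receptor pair Ifnar1 and Ifnar2, and the kinases Jak1 and Tyk2 then phosphorylate Stat2. Stat2 acts with Irf9 in the complex ISGF3, which binds a promoter element called ISRE, while type II interferon acts through an element called GAS. Neurons, astrocytes and microglia can all respond to interferon, and the induced proteins restrict the entry, replication and release of viruses.

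By role, Stat2 is the signal transducer of ISGF3, and Irf1 and Irf7 are transcription factors of the interferon regulatory factor family, Irf7 being the one that amplifies type I interferon production. Isg15 is a ubiquitin-like protein that is conjugated to other proteins. Ifit2 and Ifit3 bind RNA or partner proteins and limit viral translation. Mx1 and Mx2 are dynamin-like GTPases. Rsad2, also called viperin, is a radical SAM enzyme that makes a chain-terminating nucleotide.

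The promoters of the members were read from RefSeq on the GRCr8 build, as 250 bases before and 50 after the annotated start, and 6 of the 9 members were matched. Searched on both strands were the ISRE core GAAANNGAAA, which reads TTTCNNTTTC on the other strand, and the GAS palindrome TTCNNNGAA, which the other strand reads alike. The ISRE core was present in 3.92% of 33469 RefSeq promoters and GAS in 8.87%. Of the 6 member promoters, 3 held an ISRE core (Irf7, Ifit3 and Rsad2), 1 held GAS (Irf1), and these letters were not in the windows of Stat2 and Mx1. Printed here are the 250 bases upstream of Irf1 and Rsad2, the members that rose with PCT, and of Irf7, whose ISRE core has the same 10 letters as that of Rsad2. They lie at chr10:38417685-38417934 on the plus strand, chr6:48788121-48788370 on the minus strand and chr1:205800024-205800273 on the minus strand of GRCr8, each is written 5′ to 3′ on its gene's strand, and capitals mark the motif.
Irf1: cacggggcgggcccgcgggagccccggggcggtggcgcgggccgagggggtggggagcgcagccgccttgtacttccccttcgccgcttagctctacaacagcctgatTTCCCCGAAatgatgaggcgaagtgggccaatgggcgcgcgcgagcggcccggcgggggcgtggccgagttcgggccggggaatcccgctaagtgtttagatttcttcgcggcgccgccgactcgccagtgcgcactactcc
Rsad2: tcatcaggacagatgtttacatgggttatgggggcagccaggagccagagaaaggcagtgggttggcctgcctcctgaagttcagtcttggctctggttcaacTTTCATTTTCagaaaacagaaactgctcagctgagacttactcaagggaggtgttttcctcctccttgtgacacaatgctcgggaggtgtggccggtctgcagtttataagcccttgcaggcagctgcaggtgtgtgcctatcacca
Irf7: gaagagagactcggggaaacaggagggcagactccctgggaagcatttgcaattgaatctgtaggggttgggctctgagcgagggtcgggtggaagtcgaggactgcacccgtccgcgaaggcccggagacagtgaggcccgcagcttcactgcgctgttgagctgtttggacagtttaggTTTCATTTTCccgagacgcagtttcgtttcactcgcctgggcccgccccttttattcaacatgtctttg
The GAS match of Irf1, TTCCCCGAA, lay 142 to 134 bases before the start. The ISRE match TTTCATTTTC lay 147 to 138 bases before the start in Rsad2 and 69 to 60 bases before it in Irf7, and in Ifit3 TTTCAGTTTC lay 44 to 35 bases before the start. These are matches of letters, not measured binding sites.

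**Figure D1:**
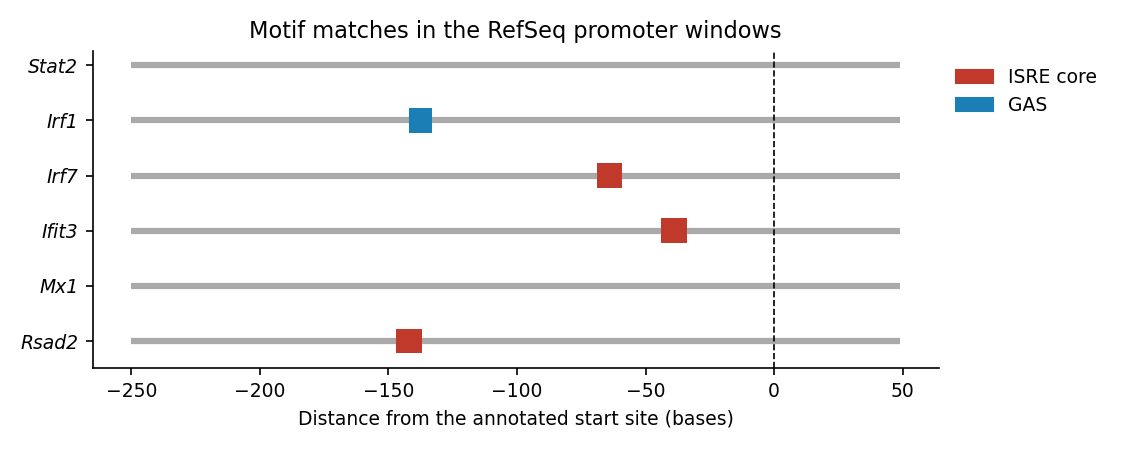
Motif matches in the promoter windows of the 6 members with a RefSeq entry, from 250 bases before to 50 after the annotated start (horizontal axis, distance from the start in bases, dashed line at the start). Red boxes are ISRE core matches (Irf7, Ifit3 and Rsad2), the blue box is the GAS match (Irf1), and Stat2 and Mx1 have none.

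Levels are given as FPKM (fragments scaled to gene length and to library size), which the authors calculated and deposited, and which is set per length so that genes can be compared. The libraries held 13573056 to 17211642 gene-assigned fragments, and within a group pairs of libraries differed by more than sampling, with a chi-square over genes of 4.16 to 21.6 per degree of freedom. Of 16 neuronal markers, such as Tubb3, Map2 and Rbfox3, 0 were called in any of the comparisons, and their summed FPKM was 2757 to 2872 in Control, 2613 to 2710 in NPCT and 2675 to 2939 in PCT. The summed FPKM of 18 microglia markers was 97.2 to 115 in Control, 107, 102 and 317 in NPCT replicates 1, 2 and 3, and 58.3 to 63.1 in PCT. None of these microglia markers was at 0 in any library. Of the 18, 7 were called lower and 0 higher with PCT than in Control, with a median log2 fold change of -1.45, and 0 were called with NPCT. The summed FPKM of 10 astrocyte markers was 2461 to 2640 in Control, 2412 to 2681 in NPCT and 2122 to 2193 in PCT, and 5 of 9 tested were called lower with PCT. NPCT replicate 3 therefore stood apart in its microglia markers, and PCT replicate 3 differed most from its group, at 18.9 and 21.6 in chi-square per degree of freedom.

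In Control cultures the members were expressed at low to middling levels. Stat2 was the highest, at 10.4 ± 1.13 FPKM (SD, n = 3), above 53.3% of the genes tested, followed by Mx2 at 8.65 ± 0.0116, Irf1 at 4.49 ± 0.695, Mx1 at 3.87 ± 0.616, Ifit2 at 3.85 ± 0.264, Isg15 at 2.24 ± 0.482, Irf7 at 1.19 ± 0.192, Rsad2 at 1.10 ± 0.313 and Ifit3 at 0.294 ± 0.115 FPKM. The Control libraries of Irf1 and Mx1, of Mx1 and Ifit2, and of Irf7 and Rsad2 overlapped, so the order within these pairs of neighbours is within their spread, whereas the other neighbours did not overlap. Behind these values lay 505 to 742 fragments per library for Stat2 and 5 to 34 for Ifit3.

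The first question was whether each peptide changed the members. A gene was called where limma gave an adjusted p (Benjamini-Hochberg) no higher than 0.05 and the fold change exceeded 1.5, with the fit made on log2(FPKM + 0.1) over the 15958 genes with a mean of at least 0.5 FPKM. Of the members, 8 entered this test and Ifit3, with a mean of 0.387 FPKM, did not. With PCT, 2 of the 8 were called higher than in Control (Irf1 and Rsad2) and 0 lower, where 0.589% of all genes tested were called higher and 1.72% lower. With NPCT 0 were called against Control, where 0.15% of all genes were called higher and 0.0689% lower. At an unadjusted p under 0.05, limma gave 1 of 8 members with NPCT (Irf7), 4 with PCT and 2 between the peptides, where 29.3%, 18.9% and 33.1% of all genes reached that p. With NPCT, limma-voom on the recovered fragments called 0 members, and 2.44% of all genes in either direction. Between the peptides, 2 of the 8 were called lower with NPCT than with PCT (again Irf1 and Rsad2) and 0 higher, against 1.38% of all genes lower and 4.38% higher. The comparisons share the Control or PCT libraries and are not independent of each other.

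**Figure D2:**
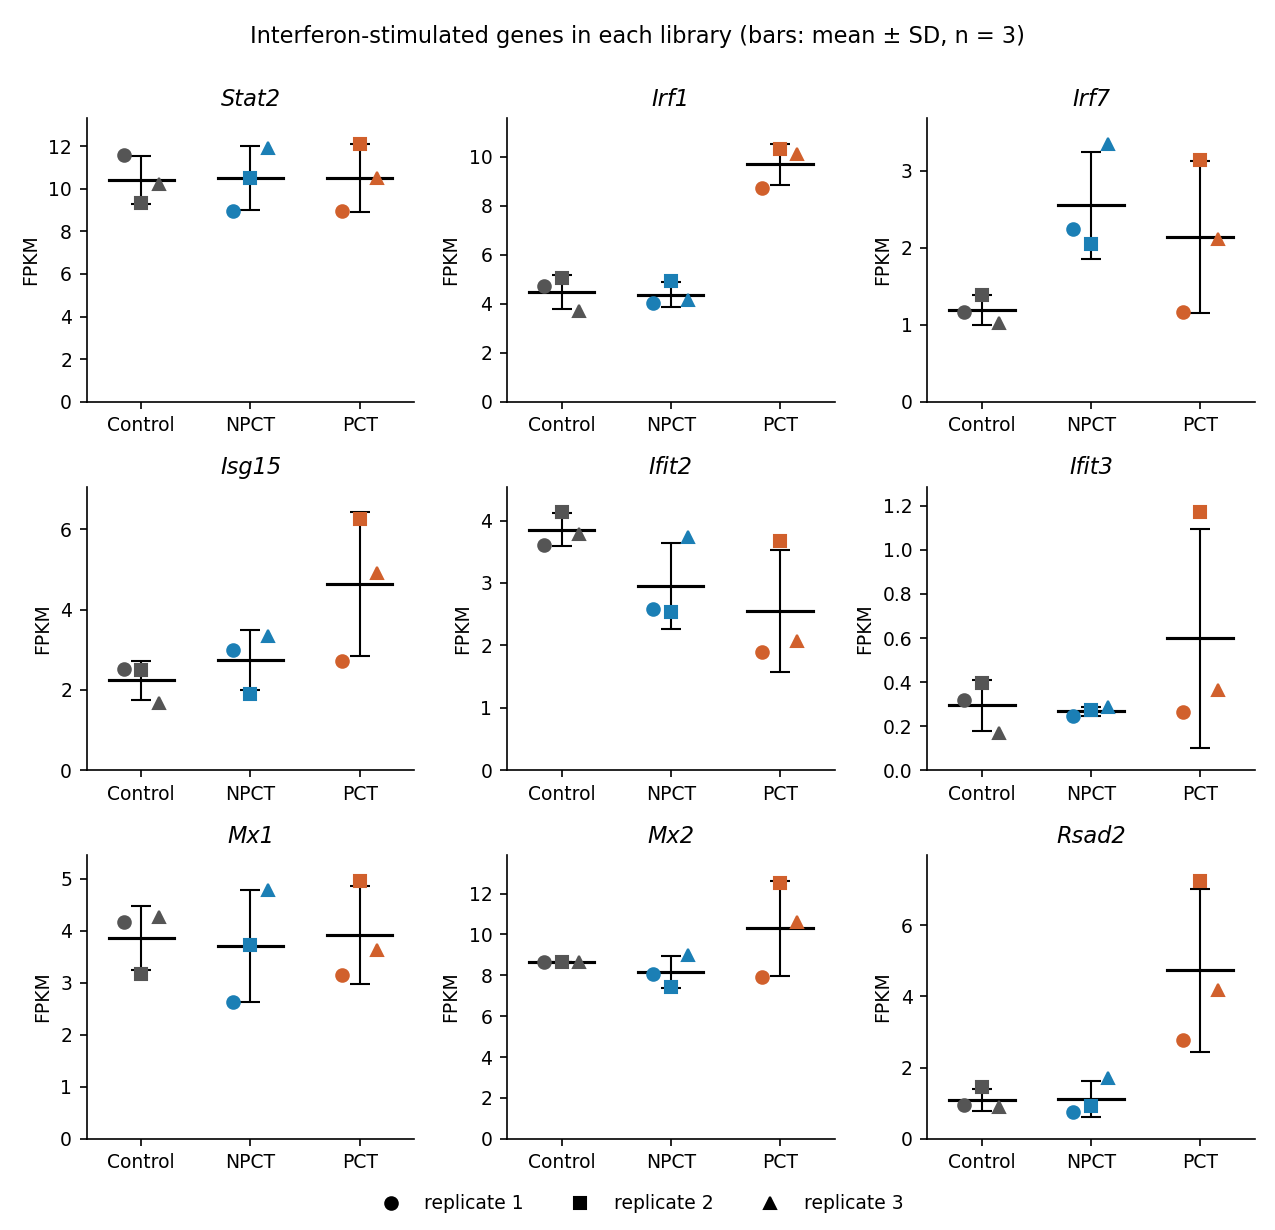
FPKM of the 9 members (vertical axes, linear, from 0) in the 3 Control, 3 NPCT and 3 PCT libraries, with symbols for the replicate, and lines for the mean ± SD. All PCT libraries of Irf1 (8.73 to 10.3 FPKM) and Rsad2 (2.78 to 7.25 FPKM) lie above all other libraries, and the groups of Stat2 and Mx1 overlap.

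Irf1, located on chromosome 10 (39109522 to 39116531, plus strand, Rnor_6.0, as are all positions of genes below), had 4.71, 5.05 and 3.71 FPKM in Control, 4.02, 4.94 and 4.14 in NPCT, and 8.73, 10.3 and 10.1 in PCT replicates 1, 2 and 3. Every PCT library was above every Control and NPCT library, and the Control and NPCT libraries overlapped. Irf1 was 2.14-fold higher with PCT than in Control, a log2 fold change of 1.10 (SE 0.14, 95% interval 0.78 to 1.41, limma adjusted p = 0.00391). Against PCT, NPCT cultures were lower by a log2 fold change of -1.13 (SE 0.14, 95% interval -1.45 to -0.82, limma adjusted p = 0.00239). With NPCT against Control the log2 fold change was -0.03 (95% interval -0.35 to 0.28, limma adjusted p = 0.892). Both PCT calls of Irf1 were made under all 18 alternatives of the processing.

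Irf7 lies on chromosome 1 (214248837 to 214252456, minus strand) and overlaps Phrf1 on the opposite strand, so its reads may be shared with that gene, since the use of strand in counting was not stated. It had 1.16, 1.39 and 1.02 FPKM in Control, 2.25, 2.05 and 3.35 in NPCT, and 1.16, 3.14 and 2.11 in PCT. Every NPCT library was above every Control library, whereas PCT replicate 1 lay within the Control range. The NPCT value was 2.02-fold the Control value, a log2 fold change of 1.02 (SE 0.34, 95% interval 0.25 to 1.79), which did not pass after adjustment (limma adjusted p = 0.0937), and it was called only when the 2 groups were fitted alone (limma adjusted p = 0.0315). Without NPCT replicate 3, which had the highest microglia markers and the highest Irf7 of its group, the log2 fold change was 0.81 (limma adjusted p = 0.231), and the part of microglia in it was not tested. With PCT the log2 fold change of Irf7 was 0.70 (95% interval -0.07 to 1.47, limma adjusted p = 0.31), and between NPCT and PCT it was 0.32 (95% interval -0.45 to 1.08, limma adjusted p = 0.555).

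Stat2 (chromosome 7, 2691369 to 2707741, plus strand) had 11.6, 9.31 and 10.2 FPKM in Control, 8.97, 10.5 and 11.9 in NPCT, and 8.94, 12.1 and 10.5 in PCT. The 3 groups overlapped. Its log2 fold change was 0.01 with NPCT (95% interval -0.31 to 0.34, limma adjusted p = 0.96) and 0.02 with PCT (95% interval -0.30 to 0.34, limma adjusted p = 0.968).

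Rsad2 (chromosome 6, 45655954 to 45669148, minus strand) had the largest PCT fold change of the tested members. It stood at 0.943, 1.46 and 0.904 FPKM in Control, 0.761, 0.912 and 1.70 in NPCT, and 2.78, 7.25 and 4.18 in PCT. Every PCT library was above every other library, but the PCT libraries themselves ranged widely, with replicate 2 highest. Rsad2 was 3.81-fold higher with PCT than in Control (log2 fold change 1.93, SE 0.39, 95% interval 1.04 to 2.82, limma adjusted p = 0.0313). This call was made under 10 of 18 alternatives, with a limma adjusted p between 0.0219 and 0.122 over all of them. It was lost, with no change of direction, without PCT replicate 2 (log2 fold change 1.57, limma adjusted p = 0.0888), and also without Control replicate 1 (adjusted p = 0.122), 2 (0.0621) or 3 (0.108), NPCT replicate 2 (0.0511) or PCT replicate 3 (0.058). Against PCT, NPCT cultures were lower by a log2 fold change of -1.95 (SE 0.39, 95% interval -2.84 to -1.06, limma adjusted p = 0.0153), a call lost without NPCT replicate 1 (-1.74, limma adjusted p = 0.0544). With NPCT against Control the log2 fold change was -0.02 (95% interval -0.91 to 0.87, limma adjusted p = 0.975).

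Isg15 (chromosome 5, 173624310 to 173626248, minus strand) had 2.53, 2.5 and 1.68 FPKM in Control, 2.99, 1.91 and 3.35 in NPCT, and 2.72, 6.26 and 4.90 in PCT. Every PCT library was above every Control library, with PCT replicate 1 only just above Control replicate 1, and the NPCT libraries overlapped both groups. The PCT value was 1.94-fold the Control value (log2 fold change 0.96, SE 0.32, 95% interval 0.23 to 1.69) and did not pass after adjustment (limma adjusted p = 0.146); it passed only without PCT replicate 1 (1.29, limma adjusted p = 0.0462). With NPCT the log2 fold change was 0.27 (95% interval -0.46 to 1.01, limma adjusted p = 0.61).

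Ifit2 and Ifit3 are neighbours on chromosome 1, and neither was called. Ifit2 (252894663 to 252900726, plus strand) had 3.61, 4.13 and 3.79 FPKM in Control, 2.58, 2.53 and 3.74 in NPCT, and 1.90, 3.67 and 2.07 in PCT. NPCT replicate 3 and PCT replicate 2 lay within the Control range and the other 4 treated libraries below it. The log2 fold change was -0.63 with PCT (SE 0.25, 95% interval -1.20 to -0.07, unadjusted p = 0.0324, limma adjusted p = 0.209) and -0.39 with NPCT (95% interval -0.96 to 0.18, limma adjusted p = 0.327). Ifit3 (252906234 to 252911382, plus strand) rested on 10, 12 and 5 fragments in Control, 7, 8 and 9 in NPCT, and 8, 34 and 13 in PCT. A single library, PCT replicate 2 with 1.17 FPKM, stood above the 0.169 to 0.394 FPKM of the 8 others. In a fit with no filter on low values, its log2 fold change with PCT was 0.65 (95% interval -0.47 to 1.77, limma adjusted p = 0.617). No change of Ifit3 was thus called, and the part of depth in this was not tested.

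Mx1 and Mx2 lie close together on chromosome 11, and how reads shared between related gene copies were counted was not stated. Mx1 (37891156 to 37914983, minus strand) had 4.17, 3.16 and 4.27 FPKM in Control, 2.63, 3.72 and 4.79 in NPCT, and 3.15, 4.96 and 3.64 in PCT. The 3 groups overlapped, with log2 fold changes of 0.01 for PCT (95% interval -0.54 to 0.55) and -0.08 for NPCT (95% interval -0.63 to 0.46). Mx2 (38035450 to 38059950, plus strand) had 8.66, 8.64 and 8.66 FPKM in Control, 8.08, 7.42 and 9.0 in NPCT, and 7.90, 12.5 and 10.6 in PCT. The treated libraries lay on both sides of the Control values. The log2 fold change of Mx2 was 0.23 with PCT (95% interval -0.12 to 0.57, limma adjusted p = 0.477) and -0.31 with NPCT against PCT (95% interval -0.66 to 0.03, limma adjusted p = 0.186).

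**Figure D3:**
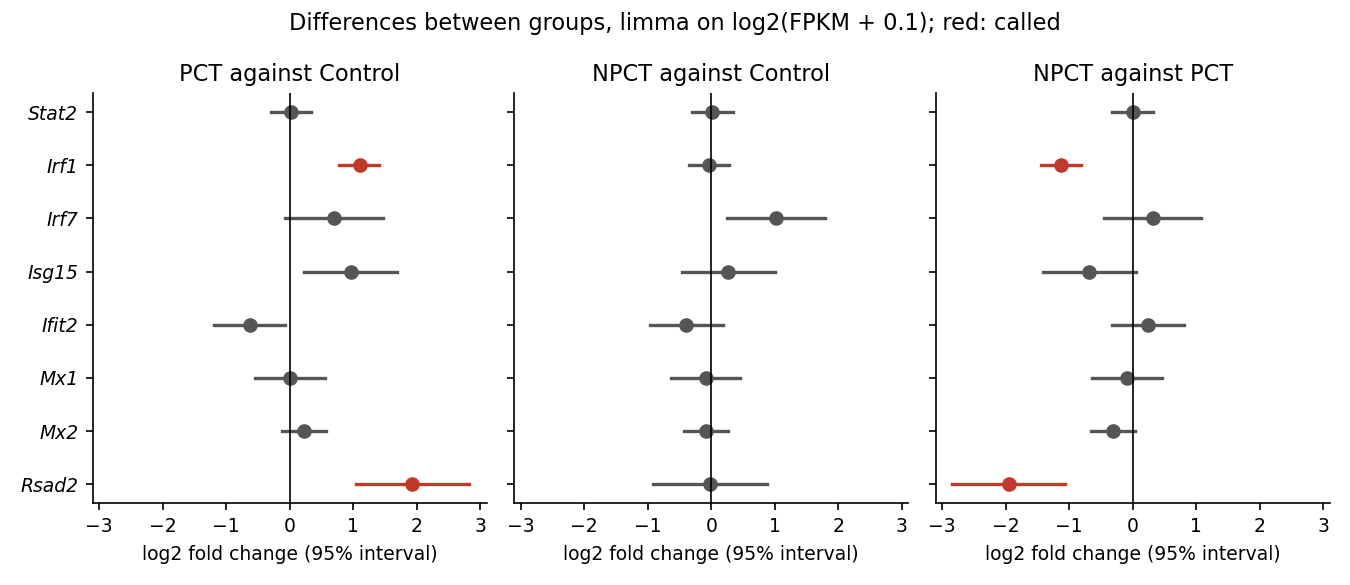
Log2 fold changes (horizontal axes, with 95% intervals from limma on log2(FPKM + 0.1)) of the 8 tested members for PCT against Control, NPCT against Control and NPCT against PCT. Called genes are red, and these are Irf1 (1.10 and -1.13) and Rsad2 (1.93 and -1.95) in the first and last panel.

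Read as a group, the 8 tested members had a median log2 fold change of 0.46 with PCT, -0.03 with NPCT and -0.20 for NPCT against PCT, where the medians of all genes tested were 0.00, 0.01 and -0.01. All PCT libraries were above all Control libraries for 3 members (Irf1, Isg15 and Rsad2) and below for 0, against 13.1% and 11.9% of all genes. All NPCT libraries were above Control for 1 member (Irf7) and below for 0, against 20.0% and 20.3% of all genes, so the NPCT count does not stand out from the background. NPCT was below PCT in all libraries for 2 members and above for 0, against 18.0% and 15.4% of all genes.

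Within the PCT group the members held one order of libraries. In 9 of 9 members PCT replicate 2 was the highest of the PCT libraries, replicate 3 the next and replicate 1 the lowest, an order held by 12% of all genes tested and singled out after the values were seen. The mean log2 level of the 8 tested members, each set against its own average over the 9 libraries, was -0.09, 0.75 and 0.33 in PCT replicates 1, 2 and 3, with -0.17, -0.12 and -0.33 in the Control replicates. In NPCT it was -0.29, -0.25 and 0.17, and replicate 3 had the highest value of the NPCT libraries in 8 of 9 members, all but Irf1, where it was the highest in 38.0% of all genes tested. PCT replicate 1 was thus close to Control replicate 2 on this scale, and 3 members (Irf1, Isg15 and Rsad2) were above all Control libraries in it. The summed microglia markers were 58.3, 63.1 and 60.5 FPKM in PCT replicates 1, 2 and 3, the order that the members had but a range narrow beside theirs, whereas in NPCT replicate 3 both the members and the microglia markers were highest; the part of microglia in these levels was not tested. PCT cultures had more Irf1 and Rsad2 and lower sums of the microglia and astrocyte markers than Control. Of the 9 astrocyte markers tested, 1 (Gfap) had a log2 fold change above 0 with PCT (0.25, not called). Gfap had 734 to 828 FPKM in Control and 899 to 931 in PCT. The summed FPKM of 6 fibroblast markers was 48.2 to 48.8 in Control and 54.8, 61.3 and 58.6 in PCT replicates 1, 2 and 3, with 6 of 6 above 0 in log2 fold change and 1 called higher (Col3a1). Most of that sum was Pdgfra, which is in the oligodendrocyte lineage list too (35.4 FPKM in Control and 39.8 in PCT, means). That of 10 oligodendrocyte lineage markers was 475 to 491 in Control and 431 to 449 in PCT, with 0 called, and the lower sum lay in Olig1 (272 FPKM in Control and 191 in PCT, means), while 8 of the 10 had a log2 fold change above 0 (median 0.19). With 3 libraries against 3 the smallest p of an exact two-sided permutation test is 0.1, which the PCT sums of all 4 lists reached against Control, as did those of the neuronal (lower) and oligodendrocyte lineage markers (517 to 553, higher) with NPCT, and the part of these cells in the members' levels was not tested. The members' order of PCT libraries was seen in the microglia and fibroblast sums but not in the others. In PCT replicates 1, 2 and 3 the astrocyte sums were 2166, 2193 and 2122, and the oligodendrocyte lineage sums 431, 433 and 449. The neuronal sums were 2939, 2675 and 2735, and those of endothelium and pericyte markers 4.79, 4.96 and 4.53.

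**Figure D4:**
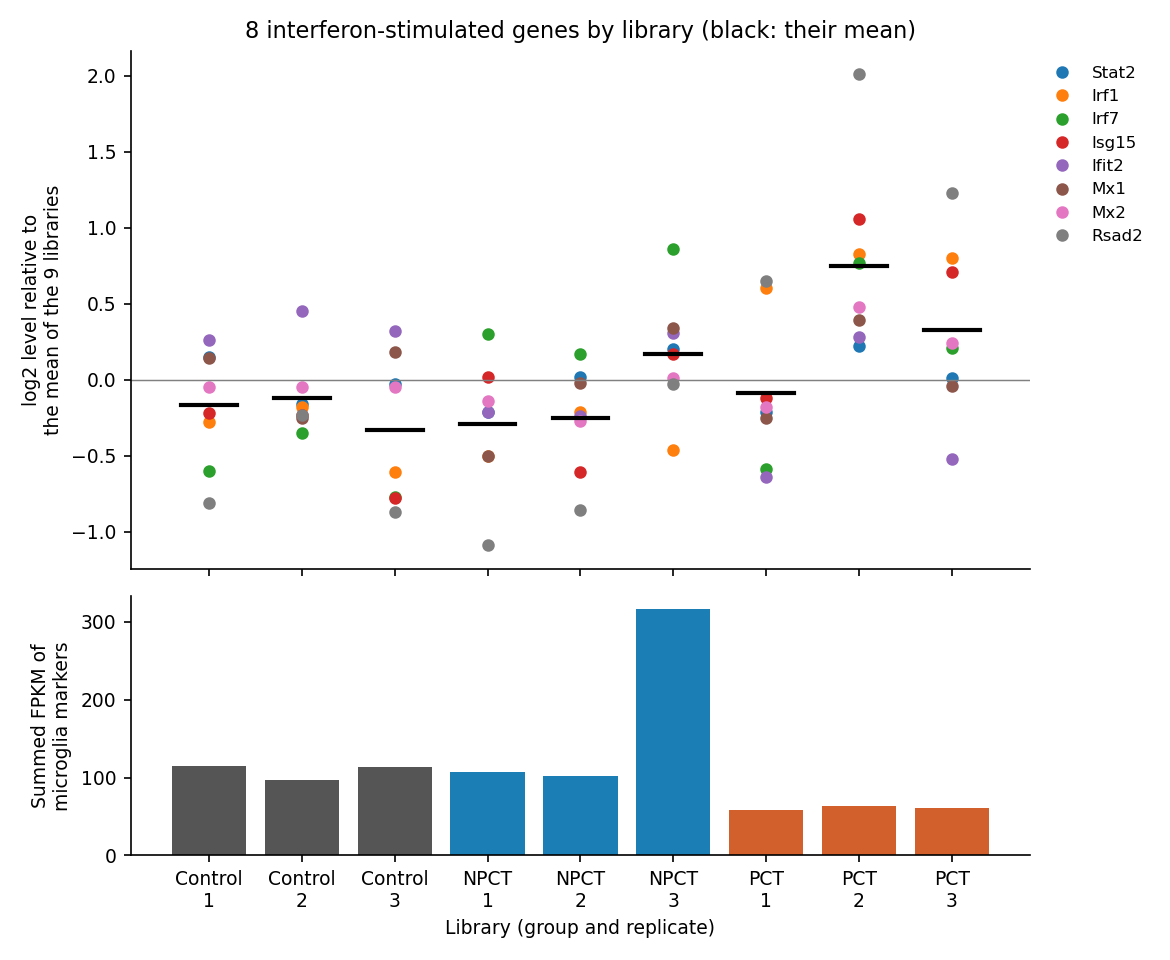
Upper panel, log2 level of each of the 8 tested members relative to its mean over the 9 libraries (points) and their mean (black lines), by library. Lower panel, summed FPKM of 18 microglia markers in the same libraries, with PCT replicate 2 highest for the members (mean 0.75) and NPCT replicate 3 highest for the markers (317 FPKM).

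The 5 genes whose log2 level followed the mean of the members most closely over the 9 libraries were Ddx58, Tmed2 and Yif1a (Pearson r = 0.97 each), Rassf4 (0.96) and Myl12a (0.95), given as a description across libraries that share their groups. Ddx58, which encodes the viral RNA sensor RIG-I, had a mean of 3.64 FPKM in Control, 3.92 in NPCT and 4.91 in PCT. Tmed2 and Yif1a, proteins of vesicle traffic between endoplasmic reticulum and Golgi, rank beside it at this likeness.

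A further 138 genes of the interferon pathway were listed by role, of which 121 were in the table and 90 were tested. Of the 90, PCT gave 2 called higher and 5 lower than Control (median log2 fold change 0.00), NPCT gave 0 in either direction (median 0.05, with 13 at an unadjusted limma p under 0.05, against 29.3% of all genes, and 3 called by limma-voom, against 390 of 15958 genes), and NPCT against PCT gave 8 higher and 2 lower (median -0.01). The shares of all genes tested were 0.589% and 1.72%, 0.15% and 0.0689%, and 4.38% and 1.38%. The 7 calls with PCT fell to 2 without Control replicate 1, 1 without Control replicate 2 or 3, and 4 without NPCT replicate 1 or PCT replicate 3. With the replicate number as a block, 3 were called higher and 2 lower with PCT. That fit lost Il10rb, Ptpn6 and Tlr7 and gained Socs3. Several of the listed genes are also expressed by microglia, whose markers moved between the same groups, and that part was not tested.

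Interferon ligands were at or near 0. Of 12 listed, 11 were in the table, each with 0 to 2 fragments per library, and 7 had 0 in all of them, among them Ifng, where 0 counts allow up to 3 fragments per library. Ifnb1 had 1 fragment in 1 library, PCT replicate 3. Of the receptors, Ifnar1 had 47.9 ± 1.40 FPKM in Control, 43.0 ± 2.23 in NPCT and 43.6 ± 2.40 in PCT, and Ifnar2 had 9.75 ± 0.329, 8.76 ± 0.761 and 9.94 ± 0.669 (SD, n = 3), and neither was called. The only receptor of 5 tested that was called was Il10rb, a subunit shared by type III interferon and interleukin 10 receptors. It fell from 3.97 ± 0.283 FPKM in Control to 2.31 ± 0.242 in PCT (log2 fold change -0.76, SE 0.18, limma adjusted p = 0.0489), a call made in 1 of 9 fits that left out a library.

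In JAK-STAT and IRF signalling, 0 of 10 tested genes were called in the 3 comparisons, and before adjustment the limma p was under 0.05 for 5 genes with NPCT, 2 with PCT and 5 between the peptides, beside 29.3%, 18.9% and 33.1% of all genes. Between the peptides the limma adjusted p passed for Jak2 (0.0107), Stat3 (0.0162) and Tyk2 (0.0188), named after their values were seen, but their log2 fold changes of -0.40, -0.51 and 0.54 were below 1.5-fold. Stat3 was called in 2 and Tyk2 in 1 of 9 fits that left out a library. Irf9, the DNA-binding subunit of ISGF3, had 8.25 ± 1.71, 10.9 ± 0.811 and 10.5 ± 1.88 FPKM (SD, n = 3) in Control, NPCT and PCT. The kinase Jak1 had 60.5 ± 0.983, 52.4 ± 1.80 and 59.8 ± 4.60 FPKM. Irf9 and Jak1, and Ifnar1 and Ifnar2 above, were named for their place in the pathway and not for a call.

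Of 12 tested sensors of nucleic acids, Tlr7, an endosomal receptor for single-stranded RNA, was lower with PCT, at 0.195 ± 0.0876 FPKM against 1.05 ± 0.253 in Control (log2 fold change -1.98, SE 0.43, limma adjusted p = 0.04, called in 1 of 9 fits that left out a library). NPCT cultures had 1.10 ± 0.552 FPKM, above PCT by a log2 fold change of 1.97 (limma adjusted p = 0.0197, called in 6 of 9 such fits). The DNA receptor Tlr9 was the other sensor called, higher in NPCT than in PCT and in 3 of 9 such fits. Among 11 feedback inhibitors the phosphatase gene Ptpn6 was the only one called, with 3.35 ± 0.280 FPKM in Control, 6.18 ± 3.59 in NPCT and 0.742 ± 0.409 in PCT (PCT against Control, log2 fold change -2.14, SE 0.42, limma adjusted p = 0.0279, called in 3 of 9 fits that left out a library). Between NPCT and PCT its log2 fold change was 2.86 (limma adjusted p = 0.00454). NPCT replicate 3, the library with the highest microglia markers, held 372 fragments of Ptpn6 against 160 and 116 in the other NPCT libraries. It also held 114 of Tlr7 against 55 and 41, and 86 of Tlr9 against 22 and 37. The part of microglia in these values was not tested.

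Of 52 antiviral effectors tested, 2 were called higher and 2 lower with PCT than in Control, beside 0.589% and 1.72% of all genes tested. Their median log2 fold change with PCT was -0.01. Gbp5, a guanylate-binding GTPase induced by interferon, rose from 4.68 ± 0.370 FPKM in Control to 11.5 ± 3.25 in PCT, with 4.79 ± 0.401 in NPCT (PCT against Control, log2 fold change 1.24, SE 0.20, limma adjusted p = 0.0115, called in 7 of 9 fits that left out a library). The chemokine gene Cxcl10 was the other one called higher, at 4.22 ± 1.36 FPKM in Control, 3.40 ± 0.625 in NPCT and 14.7 ± 5.10 in PCT (PCT against Control, log2 fold change 1.78, SE 0.30, limma adjusted p = 0.0148, called in all 9 such fits). Every PCT library of both genes lay above every Control library, as for Irf1 and Rsad2. The neighbouring chemokine gene Cxcl9 went the other way, with 2.55 ± 0.575 FPKM in Control and 0.321 ± 0.0809 in PCT (log2 fold change -2.65, SE 0.48, limma adjusted p = 0.0203, called in 5 of 9 such fits). Cxcl10 and Cxcl9 were chosen after their values were seen, as was Tlr9.

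Bst2, or tetherin, which holds budding virus at the cell surface, had the smallest p of the effectors between the peptides. It stood at 5.52 ± 0.644 FPKM in Control, 11.0 ± 4.23 in NPCT and 1.99 ± 0.664 in PCT, so that NPCT was above PCT by a log2 fold change of 2.40 (SE 0.28, limma adjusted p = 0.00208, called in 9 of 9 fits that left out a library) and PCT below Control by -1.47 (limma adjusted p = 0.0257, called in 4 of 9). Ifi27, Lgals3bp, Parp10 and Cxcl9 were also called higher with NPCT than with PCT, in 9, 8, 1 and 5 of the 9 fits that left out a library, and Cxcl10 and Gbp5 lower, each in 9 of 9. Ifi27, Lgals3bp and Parp10 were named after their values were seen. Ifi27 lies beside the related gene Ifi27l2b, so its reads may be shared. The members called between the peptides, Irf1 and Rsad2, were both lower with NPCT.

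**Figure D5:**
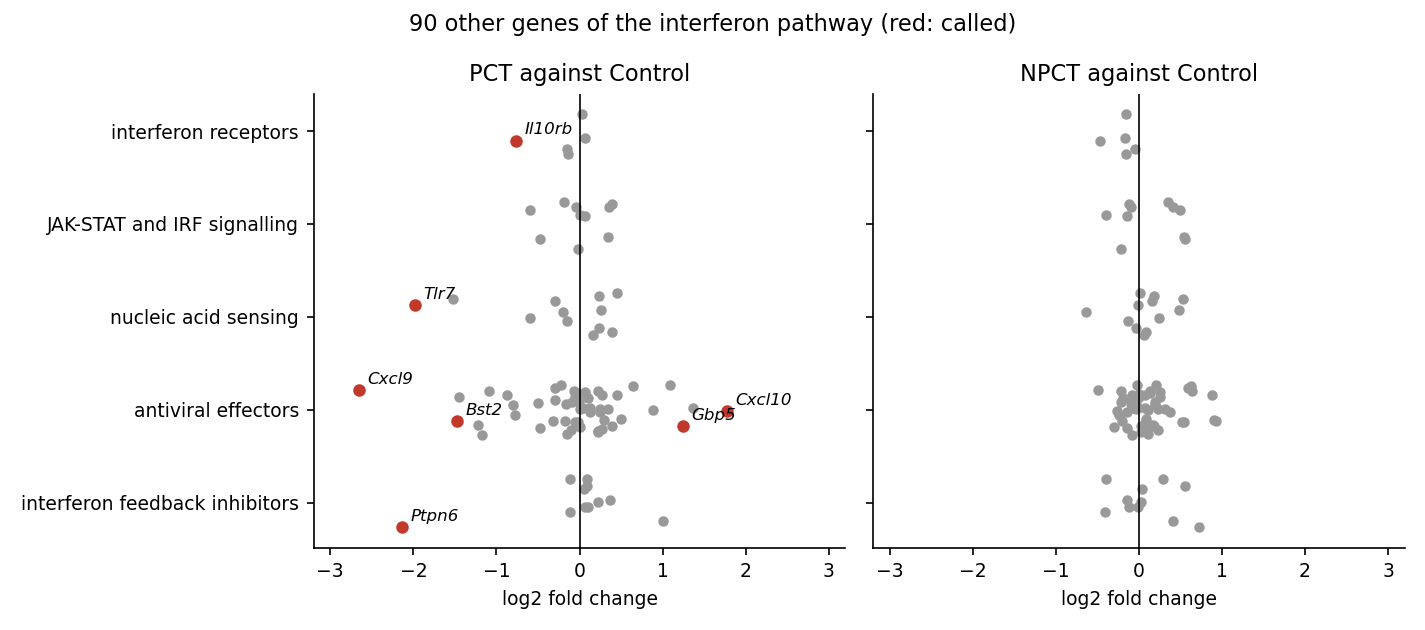
Log2 fold changes (horizontal axes) of 90 other genes of the interferon pathway, by role (rows), for PCT against Control and NPCT against Control; each point is a gene, with called genes in red and named. With PCT 2 genes (Cxcl10 and Gbp5) are called higher and 5 lower, and with NPCT 0 are called.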

How the data were processed

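Poly(A) RNA of 9 libraries was sequenced, and the deposited table gives FPKM for each gene, unlogged, with gene length. Per the labels and the submitters' processing notes, the authors used HISAT2 2.0.5, featureCounts 1.5.0-p3 and DESeq2 1.20.0 on Rnor_6.0, then calculated FPKM. In each library FPKM times gene length came out as whole multiples of 1 step for 100% of values (tolerance 0.05), from which fragments were recovered. FPKM are not counts, so log2(FPKM + 0.1) of the 15958 genes averaging 0.5 FPKM or more was tested in limma 3.58.1 (R 4.3.3) across all libraries together, by group, and p-values were adjusted by Benjamini-Hochberg over all these genes. This scale understates changes of low genes. The members and lists were chosen with earlier results of these data known. Other genes were named by a rule, the called gene with the smallest p of each of 6 pathway lists per comparison and the 5 genes most like the members. Those named outside it are marked in the text, except Ifng, Ifnb1, Pias4, Socs3, the marker genes and overlapping or neighbouring genes. Alternatives were other pseudocounts (1 and 0.01), a filter at 1 FPKM or none, quantile normalization, removal of the trend with gene length, fits of the 2 groups compared only, the replicate number as a block, leaving out each library and, chosen after seeing the data, limma-voom on the recovered fragments with library totals. The planned voom fit with TMM scaling was not run. The fits were tested on simulated data. That simulation had a single spread for all genes, changed genes in PCT only and no outlying library. It therefore does not give the error rates of the fits in these data. RefSeq promoters are on GRCr8 and gene positions on Rnor_6.0, and no position was converted.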

Additional observations from a re-analysis of the deposited data

How the results depend on the processing

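Irf1 was called with PCT against Control and against NPCT under all 18 alternatives. Of 432 member fold changes under alternatives, 421 kept their side of the threshold, 9 lost the call and 2 gained it. Of the 421, 30 had the other sign or 0 after rounding, in values that were not called (Irf1 and Rsad2 with NPCT against Control, Irf7 with NPCT against PCT, and Stat2 and Mx1). For PCT against Control, 2 members were called, but 1 (Irf1) with no filter on low values or with the 2 groups compared only, and 1 to 3 when a library was left out (3, with Isg15, without PCT replicate 1). For NPCT against PCT, 1 to 2 members were called when a library was left out. For NPCT against Control, 0 members were called, but 1 (Irf7) with the 2 groups compared only. Of the other pathway genes, 0 were called for NPCT, but 2 (Bst2 and Ifi27) with the 2 groups compared only, 3 (also Pias4) with limma-voom on fragments, an alternative chosen after seeing the data in place of the planned voom fit with TMM, which was not run, 1 (Ifi27) under the replicate block and 0 to 1 when a library was left out. For PCT, 7 were called, and 1 to 8 when a library was left out, the lowest being Cxcl10 alone without Control replicate 2 or 3. Under the replicate block 5 were called with PCT, without Il10rb, Ptpn6 and Tlr7 and with Socs3. Limma-voom called 6, without Bst2 and Ptpn6 and with Lgals3bp. Il10rb was also lost under both other pseudocounts, no filter and quantile normalization. Tlr7 was also lost under pseudocount 1, the filter at 1 FPKM, quantile normalization and the 2 groups compared only. For NPCT against PCT, 10 were called, but 5 with the 2 groups compared only. The causes were not tested. Same-numbered libraries correlated at -0.072 to 0.034 in their departures from the group means. With 3 libraries per group, these correlations cannot decide whether the numbers mark a pairing. The replicate block changed no call of a member. All genes called for NPCT against Control numbered 35, but 319 under the replicate block, 579 with the 2 groups compared only and 0 to 562 when a library was left out. The fragments behind Ifit3 (5 to 34 per library) limit what can be said of it.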
